A study of Rattus norvegicus with 48 samples.

Results

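The amino acid and peptide solute carriers are the membrane proteins that move amino acids, their relatives creatine, taurine and GABA, and short peptides across cell and organelle membranes. Their level was followed here in the renal cortex and medulla of rats fed hydroxy-L-proline (HLP), with and without apocynin. All probes were taken whose symbol starts with Slc1a, Slc3a, Slc6a, Slc7a, Slc15a, Slc36a, Slc38a or Slc43a, except Slc6a6 and Slc6a12. This gave 57 probes for 56 genes, out of 22226 probes on the table, of which 13650 carry a symbol, for 13278 genes in all. The prefix also took in Slc7a6os, which lies next to Slc7a6 and is not a carrier itself, and the monoamine carriers Slc6a2, Slc6a3 and Slc6a4. Of the monoamine carriers only Slc6a4 was tested. No probe carried the symbol of Slc6a19 or Slc36a2, which also belong to the renal uptake of neutral amino acids and proline. Slc6a19 and Slc36a2 could thus not be analysed here.

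RNA was measured on Illumina RatRef-12 BeadChips, on 1 array for the cortex and 1 for the medulla of each of 24 male rats, 48 arrays in all. The rats formed 4 groups of 6: HLP+apocynin-fed rats had chow with 5% HLP and drank apocynin at 4 mM, HLP-fed rats had chow with 5% HLP, apocynin-fed rats had plain chow and drank apocynin, entered as 4 mmol in the description of the design, and control rats had plain chow. All were killed on day 28, and the RNA came from a small piece of each dissected tissue. The labels name the strain as Wistar and the methods name it as Sprague-Dawley, the labels enter 28 days as the age, and the apocynin-fed group is described in the labels only. HLP is itself an imino acid that the kidney and liver break down to glyoxylate and oxalate, and apocynin is an inhibitor of NADPH oxidase. Within a tissue each array is a separate rat, so that p-values measure the spread between rats dissected in this one experiment.

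Nearly all amino acids that pass the glomerulus are taken back by the proximal tubule. Carriers of the brush border on the luminal side bring them into the cell, often with sodium or protons, and exchangers of the basolateral side, most of them a light chain of the Slc7 family joined to the heavy chain Slc3a2, hand them on to the blood. The convoluted segment lies in the cortex and the straight segment reaches down into the outer stripe of the outer medulla, so that carriers of the 2 segments are found at different depths of the kidney.

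Several properties of the arrays bear on every value below. The median signal of an array was 36.4 to 50.6 in the cortex and 49.3 to 75.1 in the medulla, and 48.2 to 52.9% of probes were detected (detection p-value under 0.05). In the cortex it was 36.4 to 39.9 in control and HLP-fed rats and 43.5 to 50.6 in rats given apocynin, without overlap. Array brightness and apocynin thus cannot be told apart in the cortex, which bears most on members near the floor of the scale. In the medulla the median signal was 49.3 to 53.5 in HLP-fed rats and 55.1 to 75.1 in the other groups, without overlap. Comparisons with HLP-fed rats in the medulla thus cannot be told apart from brightness either. A tissue position was computed for each array from the tested probes that are not carriers, scaled so that 0 is the median medulla array and 1 the median cortex array. The 3 other cortex groups ran from 0.81 to 1.16, and control cortex from 0.09 to 1.08. The median was 0.69 in control cortex and 0.97 to 1.09 in the 3 others. Besides control cortex 4, control cortex 1 (0.64), 3 (0.52) and 5 (0.75) also lay below every array of the other cortex groups. The arrays named control cortex 4 (0.09), control medulla 4 (0.96) and apocynin medulla 4 (0.89) lay nearer the other tissue. The 2 control arrays among them share their number and were joined as 1 rat, each near the position of the other tissue. Whether they were exchanged was not tested. All 3 arrays were kept under their labels. Comparisons of diets that rest on them are given with and without them, while cortex against medulla within a group is given with them only. The deposited table of log2 values names 40 of the 48 arrays differently from the signal table, which puts 24 arrays in another group and 0 in another tissue. Each of the 24 moves between control and HLP or between apocynin and HLP+apocynin, and 3 arrays of each group keep theirs. The namings thus differ in which arrays had HLP and not in which had apocynin. The signal table was followed, and the other naming was run as an alternative. The chip and the scan day of an array are not given in the sources used here, so that a difference between chips was not tested. Among markers, Slc12a3 of the distal tubule was higher in the cortex by 2.33 on the log2 scale, Nphs1 of the podocyte by 1.85 and Slc5a2 of the convoluted proximal tubule by 2.29, while Slc14a2 of the inner medulla was lower, at -2.17. These are single genes of longer lists. At an adjusted p under 0.05 (limma), 6 of 8 proximal tubule markers were higher in the cortex and 1 lower (median 0.79). Of 6 collecting duct markers 2 were higher and 4 lower, and of 3 inner medulla markers 2 were lower. Among all tested probes 34.2% were higher and 31.1% lower. No endothelial marker of the list was tested.

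Of the 57 carrier probes, 41 were detected in at least 6 arrays of a tissue and were tested, 41 in the cortex and 40 in the medulla, where Slc38a9 was left out. Slc3a1, the heavy chain of the luminal cystine carrier, and Slc1a1, the luminal glutamate carrier, were detected on all 48 arrays, as were both of the exchanger subunits Slc7a7 and Slc3a2. The 16 probes tested in neither tissue were Slc36a3, Slc38a5, Slc38a8, Slc6a2, Slc6a3, Slc6a5, Slc6a11, Slc6a14, Slc6a15, Slc7a1, Slc7a2, Slc7a3, Slc7a10, Slc7a11, Slc7a15 and the second probe of Slc1a5. Slc6a2, the noradrenaline carrier, was detected on 5 cortex arrays and 1 medulla array, Slc38a5 on 2 cortex arrays and 1 medulla array, and the other 14 on none. They include the cystine and glutamate exchanger Slc7a11 and the arginine carriers Slc7a1, Slc7a2 and Slc7a3, for which these arrays give only that no level above background was seen.

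The tissue was the difference along which most carriers varied. Over the 24 rats, 32 of 41 tested members (78%) differed between cortex and medulla at an adjusted p under 0.05 (limma, with both arrays of a rat joined), where 65.3% of all 12616 tested probes did. Of these, 13 were higher in the cortex (34.2% of all probes) and 19 lower (31.1% of all probes), and the median difference was -0.02 over the members and 0.00 over all probes. The split moved with the scaling: quantile normalization within each tissue, which moved the median of all probes to -0.20, gave 8 higher and 33 lower, the log2 values of the authors, with a median of -0.44, gave 8 and 32, and median scaling gave 9 and 22. In tissue pieces, fewer cells of a type and less RNA per cell cannot be told apart.

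**Figure D1:**
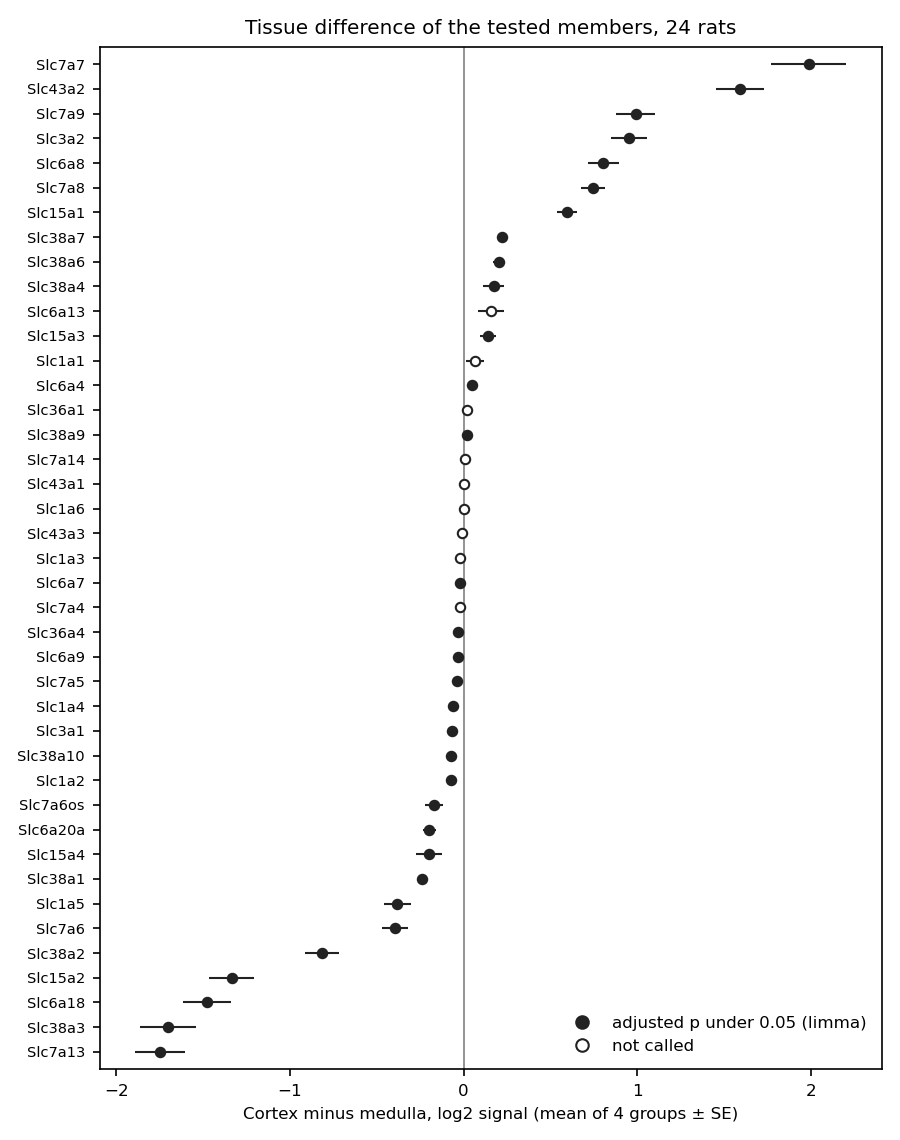
Cortex minus medulla on the log2 scale for each of the 41 tested members, as the mean of the 4 groups with its SE, filled where the adjusted p was under 0.05. Slc7a7 at 1.99 and Slc43a2 at 1.59 stand at the upper end, and Slc7a13 at -1.75 and Slc38a3 at -1.70 at the lower end.

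The members of the luminal membrane fell on both sides. Slc7a13, which in the mouse joins Slc3a1 as a carrier of acidic amino acids and cystine in the straight proximal tubule, had the lowest difference of all members (gene at chr5:38074171-38096856 of GRCr8). Its log2 signal was 10.20 at the lowest, 11.08 at the median and 13.44 at the highest over the 24 cortex arrays, against 12.01, 13.30 and 13.40 over the 24 medulla arrays. The medulla arrays crowded at the top of the range apart from a few, and some control cortex arrays reached as high. The difference was -1.75 (SE 0.14, adjusted p 7.62e-13), and within the diets it was -2.37 in HLP+apocynin-fed, -2.05 in HLP-fed, -2.16 in apocynin-fed and -0.41 in control rats.

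Slc6a18, a luminal carrier of glycine and other neutral amino acids of the later proximal tubule, behaved alike. It measured 9.47, 9.86 and 11.66 (lowest, median, highest) in the cortex against 9.89, 11.70 and 12.07 in the medulla, a difference of -1.48 (SE 0.14, adjusted p 8.55e-12). Slc15a2, the high-affinity peptide carrier of the same later segment, measured 6.69, 6.83 and 8.19 in the cortex against 6.80, 8.49 and 9.03 in the medulla, a difference of -1.34 (SE 0.13, adjusted p 1.52e-11). For both, the ranges overlapped only through control cortex arrays on one side and a few medulla arrays on the other. The low-affinity peptide carrier Slc15a1, known from the early proximal tubule, lay the other way, with 6.56, 7.28 and 7.63 in the cortex against 6.46, 6.57 and 7.29 in the medulla. Its difference was 0.60 (SE 0.06, adjusted p 1.53e-11), so that the 2 peptide carriers of the plasma membrane had opposite tissue differences.

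Slc7a9, the light chain that joins Slc3a1 to take up cystine and dibasic amino acids, was higher in the cortex. It measured 10.78, 11.71 and 11.96 in the cortex against 9.72, 10.67 and 11.82 in the medulla, a difference of 0.99 (SE 0.11, adjusted p 4.35e-10). On this scale its heavy chain Slc3a1 was nearly level, with 13.12, 13.40 and 13.50 in the cortex against 13.37, 13.45 and 13.64 in the medulla. It passed the test with a difference of -0.07. That size depends on the scaling: over the 12 alternatives it ran from -0.46 to -0.06, and Slc3a1 passed in all. Both partners known for Slc3a1, the light chains Slc7a9 and Slc7a13, thus differed between the tissues in opposite directions. How much Slc3a1 itself differed is not settled by these values. Slc1a1 measured 12.16, 12.61 and 12.93 in the cortex against 11.85, 12.62 and 12.87 in the medulla and did not pass the test (difference 0.06, SE 0.05, adjusted p 0.269).

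Carriers of imino acids, which include proline and HLP, lay near the floor of the scale. Slc6a20a, the sodium-dependent proline carrier, measured 6.65, 6.76 and 7.08 in the cortex against 6.61, 6.98 and 7.40 in the medulla, a difference of -0.20 that passed the test. The proton-coupled proline and glycine carrier Slc36a1 measured 6.52, 6.65 and 6.75 in the cortex against 6.51, 6.64 and 6.71 in the medulla, a difference of 0.02 that did not. Slc6a7, a proline carrier known from brain, was lower in the cortex by the small difference of -0.02.

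**Figure D2:**
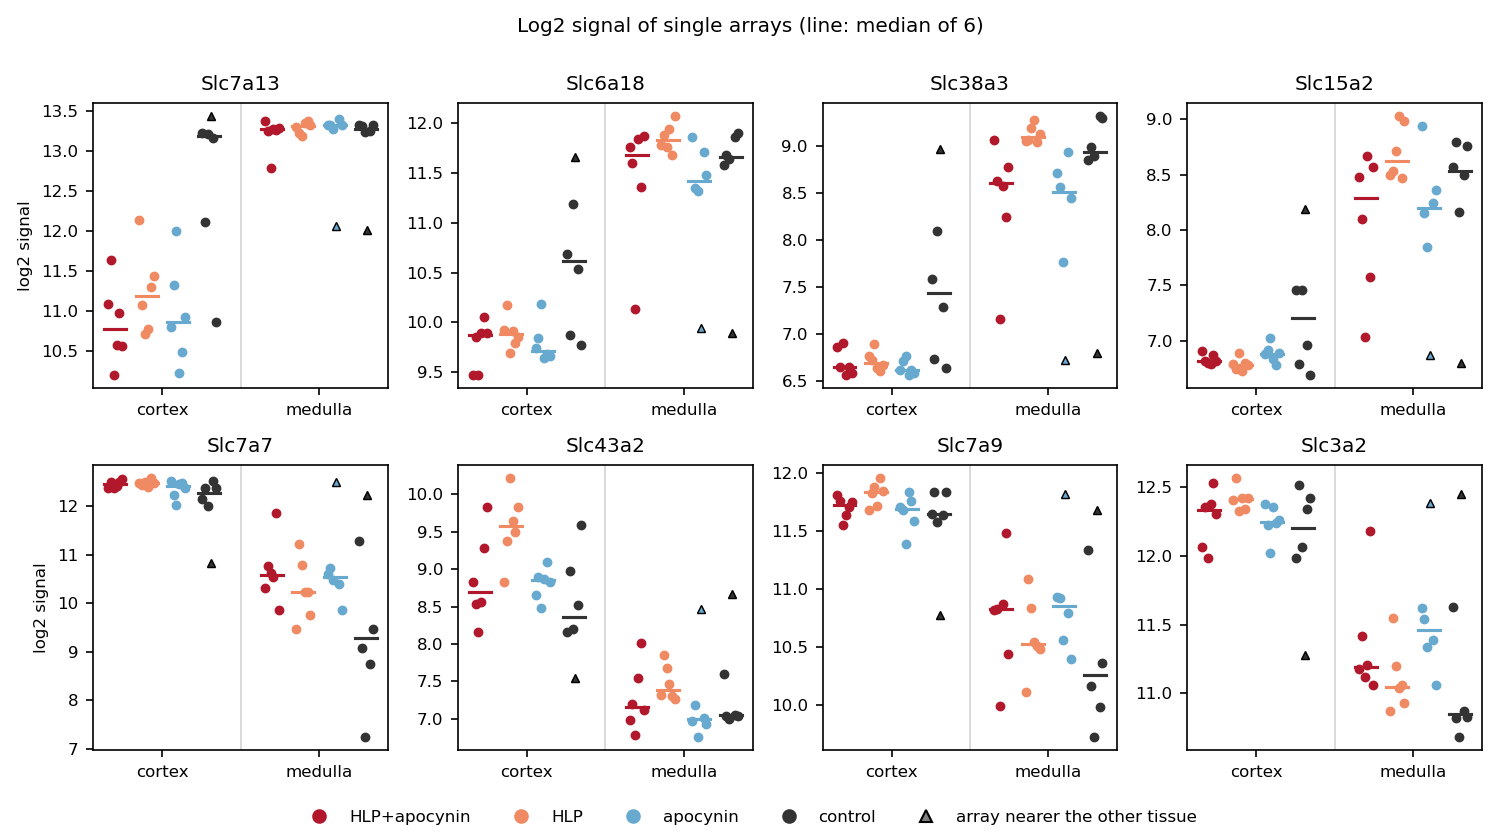
Log2 signal of 8 members on the single arrays of the cortex and medulla in the 4 groups, with lines for the medians of 6 arrays and triangles for the 3 arrays nearer the other tissue. In the upper row the control cortex arrays reach up toward the medulla, Slc38a3 up to 8.97, and in the lower row the cortex lies above the medulla, Slc7a7 at a median of 12.43 against 10.44.

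Carriers of the basolateral side lay on both sides too, with Slc7a7 and Slc43a2 at the upper end of the members and Slc38a3 near the lower end. Slc7a7, the light chain that with Slc3a2 exports dibasic amino acids, measured 10.83, 12.43 and 12.58 in the cortex against 7.23, 10.44 and 12.49 in the medulla, a difference of 1.99 (SE 0.22, adjusted p 2.27e-10). Slc43a2, a basolateral outlet for neutral amino acids, measured 7.54, 8.85 and 10.22 in the cortex against 6.75, 7.19 and 8.67 in the medulla, a difference of 1.59 (SE 0.14, adjusted p 1.85e-12). For Slc7a7 all but the cortex array control 4 lay at the top of the range, while the medulla arrays were spread widely. Slc3a2, the heavy chain, measured 11.28, 12.34 and 12.57 in the cortex against 10.68, 11.19 and 12.45 in the medulla (difference 0.95, SE 0.10, adjusted p 1.87e-10). Slc7a8, the other light chain of this membrane, measured 6.68, 7.36 and 8.15 in the cortex against 6.43, 6.54 and 7.33 in the medulla (difference 0.74, SE 0.07, adjusted p 5.96e-12). The 3 subunits Slc7a7, Slc7a8 and Slc3a2 were thus all higher in the cortex. Slc6a8, the creatine carrier, measured 10.67, 11.30 and 11.59 in the cortex against 9.98, 10.42 and 11.63 in the medulla (difference 0.80, SE 0.09, adjusted p 4.48e-10).

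The glutamine carriers of the Slc38 family were divided. Slc38a3, which brings glutamine across the basolateral membrane for ammonia formation, measured 6.56, 6.69 and 8.97 in the cortex against 6.72, 8.87 and 9.32 in the medulla, a difference of -1.70 (SE 0.16, adjusted p 1.07e-11). Outside control rats its cortex arrays lay at or near the lowest values of the medulla. Slc38a2, a carrier of small neutral amino acids that is known to rise when cells lose water, measured 10.30, 10.85 and 11.84 in the cortex against 10.77, 11.76 and 12.26 in the medulla, a difference of -0.82 (SE 0.10, adjusted p 2.29e-09). Slc38a1 differed by -0.24, while Slc38a4, Slc38a6 and the lysosomal Slc38a7 were higher in the cortex by 0.17, 0.20 and 0.22. Scaling turned the first of these to -0.18 with quantile normalization within each tissue, -0.23 in the log2 values of the authors and -0.04 with median scaling. It turned Slc38a6 to -0.08 with quantile normalization within each tissue and -0.11 in the log2 values of the authors. Among exchangers of wider distribution, Slc7a6 was lower in the cortex by the difference of -0.40 and Slc1a5, a carrier of glutamine and small neutral amino acids, by -0.38. The lysosomal peptide carriers Slc15a3 and Slc15a4 differed by 0.14 and -0.20, and Slc15a3 came to -0.10 with quantile normalization within each tissue and to -0.11 in the log2 values of the authors. Slc38a9, the lysosomal arginine sensor, was detected on 9 of 24 cortex arrays and 0 of 24 medulla arrays. The mean of its cortex arrays was 1.01-fold that of the lowest detected signals of the medulla arrays. Most of the cortex arrays lay below detection too, so that no direction can be read from this. Scaling turned the sign of the Slc38a9 difference, 0.02 as reported, to -0.10 with quantile normalization within each tissue and to -0.38 in the log2 values of the authors.

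Background correction with an added offset lifted the lowest signals, so that differences of dim members are understated on this scale. Without background correction the cortex minus medulla difference was 1.62 for Slc7a8, 1.39 for Slc15a1, 0.81 for Slc38a7 and -0.73 for Slc38a1, with the directions as above.

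Promoters of members with large tissue differences on each side are shown, as the base sequence to which the differences belong. RefSeq holds a window from 250 bases before to 50 bases after the start for 42 of the 56 member genes, 31 of them tested, on the GRCr8 build, and none was matched for Slc7a13, Slc38a3 or Slc6a13. Each is read along the strand of its gene, and the capital letter marks the first base after the upstream stretch. The start is the one that the RefSeq table uses, which for Slc6a18, Slc7a7 and Slc43a2 lies inside the span of the gene rather than at its end. Slc6a18 and Slc15a2, both lower in the cortex, lie on the plus strand at chr1:31436403-31436702 and chr11:77519315-77519614. Slc7a7 and Slc43a2, both higher in the cortex, lie on the minus strand at chr15:31835634-31835933 and on the plus strand at chr10:60874588-60874887.
Slc6a18: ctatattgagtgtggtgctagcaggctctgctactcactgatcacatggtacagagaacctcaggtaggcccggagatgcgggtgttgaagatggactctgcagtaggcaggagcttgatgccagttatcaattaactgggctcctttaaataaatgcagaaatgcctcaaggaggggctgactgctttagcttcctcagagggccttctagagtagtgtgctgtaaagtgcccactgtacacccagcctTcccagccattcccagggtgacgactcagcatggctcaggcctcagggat
Slc15a2: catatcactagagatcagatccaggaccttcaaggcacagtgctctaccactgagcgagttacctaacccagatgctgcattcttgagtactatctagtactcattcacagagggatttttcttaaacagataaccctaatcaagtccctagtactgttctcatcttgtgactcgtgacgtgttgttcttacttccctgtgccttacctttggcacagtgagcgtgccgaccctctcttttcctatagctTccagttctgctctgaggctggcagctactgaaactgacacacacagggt
Slc7a7: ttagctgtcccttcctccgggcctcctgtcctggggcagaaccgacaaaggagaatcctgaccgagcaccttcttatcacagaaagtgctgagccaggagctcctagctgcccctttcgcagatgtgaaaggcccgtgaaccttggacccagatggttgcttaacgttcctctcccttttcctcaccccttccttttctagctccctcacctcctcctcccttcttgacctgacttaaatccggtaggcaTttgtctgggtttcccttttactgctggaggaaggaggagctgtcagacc
Slc43a2: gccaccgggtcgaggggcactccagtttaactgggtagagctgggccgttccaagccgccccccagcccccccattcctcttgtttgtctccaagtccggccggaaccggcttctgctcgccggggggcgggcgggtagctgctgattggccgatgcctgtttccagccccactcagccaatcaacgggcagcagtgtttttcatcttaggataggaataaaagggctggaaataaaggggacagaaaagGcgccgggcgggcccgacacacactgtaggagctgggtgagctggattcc

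The tissues were also set against each other within each group. At an adjusted p under 0.05 (limma), 19 of 41 members differed between cortex and medulla in HLP+apocynin-fed rats (28.7% of all probes), 27 in HLP-fed rats (49.9%), 24 in apocynin-fed rats (37.3%) and 22 in control rats (35.4%). In HLP-fed rats the 6 cortex arrays lay wholly above the 6 medulla arrays for 10 members and wholly below for 10, where 26.6% of all probes lay apart (12.7% above, 13.9% below). The like counts were 4 and 5 in HLP+apocynin-fed rats (5.8% of all probes, 2.87% above and 2.93% below). They were 2 and 3 in apocynin-fed rats (12.2%, 6.44% above and 5.75% below) and 2 and 1 in control rats (9.27%, 3.38% above and 5.88% below). The members apart in control rats were, on the normalized scale, Slc7a14 and Slc38a4, higher in the cortex, and the glutamate carrier Slc1a2, lower. Before normalization Slc38a4 measured 163 to 184 in control cortex against 195 to 229 in control medulla, and Slc7a14 46 to 50 against 55 to 67. The direction of Slc7a14 and Slc38a4 thus rests on the scaling, and ranges within a group were not followed under other scalings. Without the 3 arrays nearer the other tissue, 34 members in place of 32 passed the test over all rats. The counts within a group are given with those arrays only. Over the 24 rats taken as a whole, no member had cortex and medulla ranges that did not overlap, and neither did any other probe (0%). With control cortex 4 at a tissue position of 0.09 and control medulla 4 at 0.96, this count could hardly have been otherwise.

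**Figure D3:**
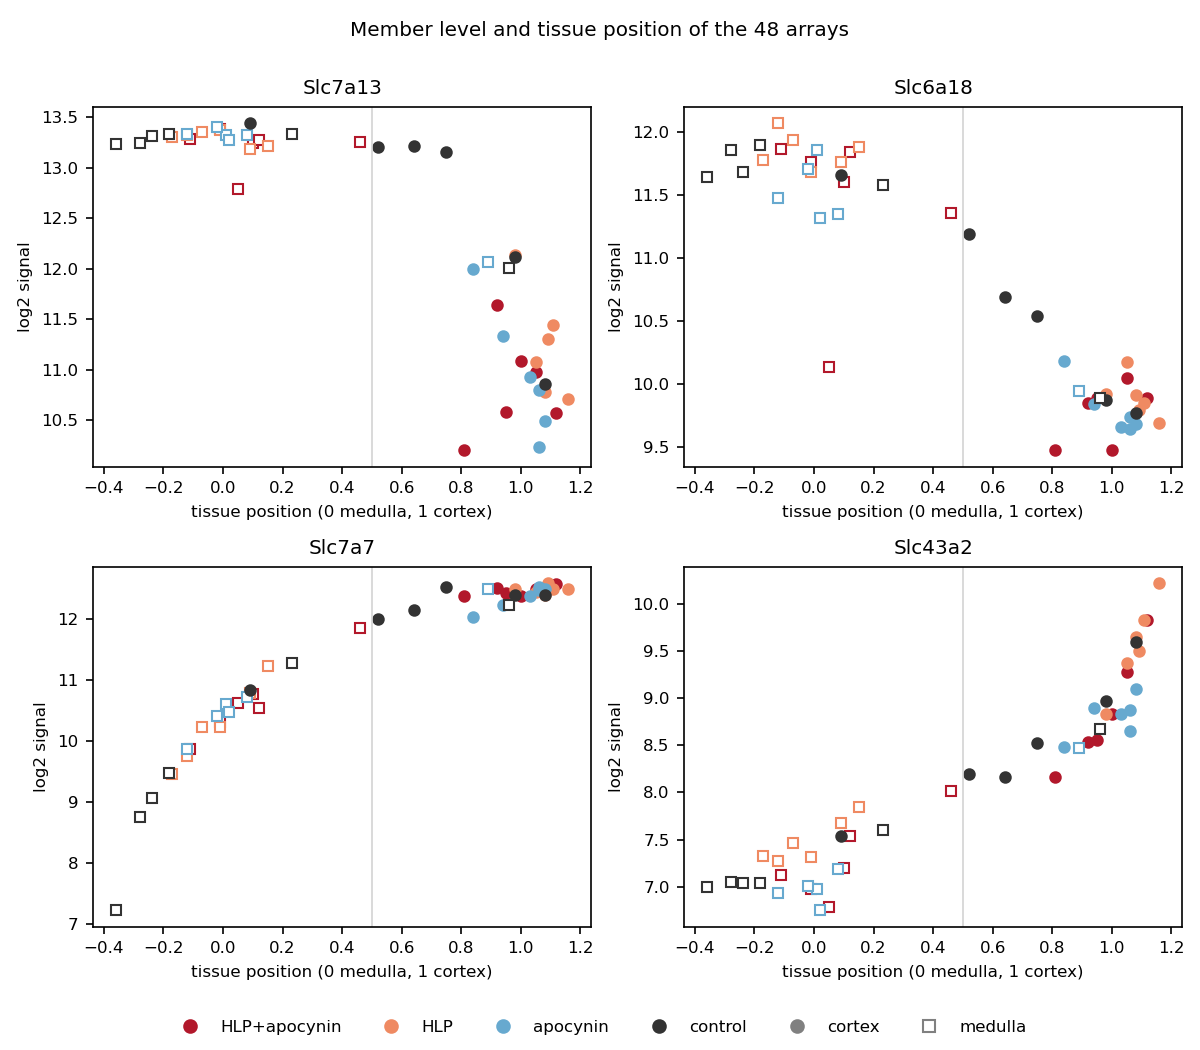
Log2 signal of 4 members against the tissue position of each of the 48 arrays, from 0 at the median medulla array to 1 at the median cortex array, filled for cortex and open for medulla. The control cortex arrays span positions from 0.09 to 1.08, and Slc7a13 and Slc6a18 are high where the position is low.

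The first comparison of diets asks what HLP feeding did in the cortex. Of 41 members, 3 passed the test in HLP-fed against control rats (7.32%, against 2.46% of all 12268 tested probes), Slc43a2 and Slc38a9 up and Slc7a13 down, and 14 members had an unadjusted p under 0.05. The median difference was -0.00 over the members and 0.00 over all probes. Slc7a13 measured 10.71, 11.19 and 12.14 (lowest, median, highest of 6) in HLP-fed rats against 10.86, 13.18 and 13.44 in control rats. Only the control arrays 2 and 6, at tissue positions of 0.98 and 1.08, came down to the HLP range. Control arrays 1, 3, 4 and 5, at positions of 0.09 to 0.75, measured 13.16 to 13.44. The log2 fold change came to -1.42 (SE 0.37, adjusted p 0.0428), which is 2.68-fold lower.

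Slc43a2 measured 8.83, 9.57 and 10.22 in HLP-fed rats against 7.54, 8.36 and 9.59 in control rats, and the ranges overlapped. The log2 fold change came to 1.07 (SE 0.29, adjusted p 0.0479), which is 2.10-fold higher. Slc38a9 measured 6.51, 6.51 and 6.52 against 6.46, 6.48 and 6.51 in control rats, detected on 5 of 6 and 2 of 6 arrays, a log2 fold change of 0.03. Of its 9 detected cortex arrays, 5 were those of HLP-fed rats. It met the detection limit only through the group where it was high, so its call is no separate evidence of a difference. Slc7a8 stood just outside the threshold at 0.57 (SE 0.16, adjusted p 0.0540). The luminal Slc6a18 had a log2 fold change of -0.73 and Slc38a3 one of -0.83, neither past the threshold.

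These differences moved with the tissue position of the control arrays. HLP cortex lay at 0.98 to 1.16 and control cortex at 0.09 to 1.08, and both Slc7a13 and Slc43a2 had large tissue differences of the same sign as their diet differences. The 8 tested markers of the proximal tubule had a mean log2 level of 12.10 to 12.27 in HLP cortex and 11.15 to 12.15 in control cortex. Without control cortex 4 no carrier passed (0 of all probes did), Slc7a13 at -1.27 (adjusted p 0.0891) and Slc43a2 at 0.88 (adjusted p 0.102). With the tissue position as a covariate the values were -0.48 for Slc7a13 (adjusted p 0.813) and 0.15 for Slc43a2 (adjusted p 0.894), and under the naming of the log2 table -0.67 (adjusted p 0.747) and 0.25 (adjusted p 0.928). Over the 16 alternatives the adjusted p ran from 0.00474 to 0.813 for Slc7a13 and from 0.0208 to 0.928 for Slc43a2, and each passed in 7. The count of 3 was also 0 when only the 12 arrays compared were fitted, or when the 36 arrays of the paper were normalized and fitted alone. Whether the depth of dissection plays a part in these differences was not tested beyond these values.

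HLP+apocynin against control asks for the joint effect on the cortex and shares the control arrays with the comparison above. Of 41 members, 5 passed (12.2%, against 16.1% of all probes), Slc1a2 up and Slc7a13, Slc6a18, Slc38a3 and Slc6a13 down, and 12 had an unadjusted p under 0.05. The median was -0.01 over the members and 0.00 over all probes. Slc7a13 measured 10.20, 10.78 and 11.64 in HLP+apocynin-fed rats against 10.86, 13.18 and 13.44 in control rats, a log2 fold change of -1.82 (its SE 0.37, adjusted p 0.00157), which is 3.54-fold lower. It was the member with the lowest value, and the ranges overlapped through control array 6. Slc6a18 measured 9.47, 9.87 and 10.05 against 9.77, 10.62 and 11.66 in control rats (log2 fold change -0.85, SE 0.22, adjusted p 0.0103). Slc38a3 measured 6.56, 6.65 and 6.90 against 6.64, 7.44 and 8.97 in control rats (log2 fold change -0.85, SE 0.24, adjusted p 0.0184). HLP+apocynin cortex lay at a tissue position of 0.81 to 1.12, against 0.09 to 1.08 for control cortex. For both genes the diet arrays sat together at the low end and the control arrays were spread over the whole range.

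Slc6a13, a carrier of GABA and taurine on the basolateral side, has a small tissue difference (0.16, adjusted p 0.0594) that did not pass the test. It measured 7.36, 7.93 and 8.30 in HLP+apocynin-fed rats against 7.90, 8.46 and 8.63 in control rats, a log2 fold change of -0.46 (its SE 0.14, adjusted p 0.0232). With the tissue position as a covariate its value was -0.65 (adjusted p 0.00520), without control cortex 4 it was -0.56 (adjusted p 0.00564), and under the naming of the log2 table -0.30 (adjusted p 0.221). Over 16 alternatives its adjusted p ran from 0.00520 to 0.221, and it passed in 10. Slc1a2, a glutamate carrier best known from glia, measured 6.55, 6.60 and 6.62 against 6.51, 6.52 and 6.55 in control rats, close to the floor of the scale, and passed with a log2 fold change of 0.07 (adjusted p 0.00442). In this comparison 6.32% of all probes had ranges that did not overlap.

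Without control cortex 4, Slc7a13 stood at -1.67 (adjusted p 0.00506), Slc38a3 at -0.56 (adjusted p 0.0247) and Slc6a18 at -0.64 (adjusted p 0.0232), and all passed. That fit kept control cortex 1, 3 and 5, which also lay below the other cortex groups in tissue position. Slc7a13 also passed with the tissue position as a covariate, at -1.12 (adjusted p 0.0289), while Slc38a3 at -0.20 (adjusted p 0.206) and Slc6a18 at -0.33 (adjusted p 0.140) did not. Under the naming of the log2 table the 3 stood at -1.41 (adjusted p 0.0554), -0.60 (adjusted p 0.255) and -0.51 (adjusted p 0.293), and none passed. Over the 16 alternatives the adjusted p of Slc7a13 ran from 0.000889 to 0.0554, that of Slc38a3 from 0.00154 to 0.255, and that of Slc6a18 from 0.00416 to 0.293. Control cortex 1, 3, 4 and 5, at tissue positions of 0.09 to 0.75, measured 13.16 to 13.44 for Slc7a13. Control cortex 2 and 6, at 0.98 and 1.08, measured 12.12 and 10.86. The covariate is a straight line in tissue position, and other shapes were not tested.

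Apocynin alone against control was of like size. Of 41 members, 7 passed (17.1%, against 16.8% of all probes), 1 up and 6 down, and 13 had an unadjusted p under 0.05. The median difference was -0.00 over the members and 0.00 over all probes. Slc7a13 measured 10.23, 10.87 and 12 in apocynin-fed rats against 10.86, 13.18 and 13.44 in control rats, a log2 fold change of -1.70 (its SE 0.37, adjusted p 0.00240). Slc38a3 measured 6.56, 6.62 and 6.77 against 6.64, 7.44 and 8.97 in control rats (log2 fold change -0.90, SE 0.24, adjusted p 0.0112). Slc6a18 measured 9.64, 9.71 and 10.18 against 9.77, 10.62 and 11.66 in control rats (log2 fold change -0.83, SE 0.22, adjusted p 0.0110). All 3 ranges overlapped those of control rats through the lowest control arrays. Apocynin cortex lay at a tissue position of 0.84 to 1.08. Slc6a13 did not pass here (-0.34, adjusted p 0.0935), though it did with the tissue position as a covariate (-0.54, adjusted p 0.0205; 0.0205 to 0.125 over the alternatives). Slc7a6os, the neighbour of Slc7a6, measured 7.41, 7.75 and 7.91 against 7.80, 8.05 and 8.20 in control rats (log2 fold change -0.33, adjusted p 0.0344).

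The other 3 members called for apocynin lay near the floor, where the spread between arrays is compressed. Slc1a2 measured 6.57, 6.61 and 6.69 in apocynin-fed rats against 6.51, 6.52 and 6.55 in control rats, with no overlap, and a log2 fold change of 0.09 (adjusted p 0.000139). Slc7a14, a lysosomal membrane protein, measured 6.51, 6.53 and 6.54 against 6.55, 6.56 and 6.59, again apart from control rats, a log2 fold change of -0.03. Here 9.38% of all probes lay apart in this way. Slc7a5, the light chain for large neutral amino acids, differed by -0.05 and was detected on 2 of 6 apocynin cortex arrays and 5 of 6 control cortex arrays. It was detected on 10 cortex arrays in all and met the detection limit only through the control arrays, where it was high. Without control cortex 4, Slc7a13 stood at -1.55 (adjusted p 0.00791), Slc38a3 at -0.62 (adjusted p 0.0126) and Slc6a18 at -0.62 (adjusted p 0.0261). Here too control cortex 1, 3 and 5 were kept. Under the naming of the log2 table, Slc7a13 at -1.37 (adjusted p 0.0491) passed, while Slc38a3 at -0.47 (adjusted p 0.321) and Slc6a18 at -0.54 (adjusted p 0.194) did not. With the tissue position as a covariate, Slc7a13 stood at -0.94 (adjusted p 0.0831), Slc38a3 at -0.20 (adjusted p 0.265) and Slc6a18 at -0.26 (adjusted p 0.303), none past the threshold. Over 15 alternatives the adjusted p ran from 0.000911 to 0.0831 for Slc7a13, from 0.00189 to 0.321 for Slc38a3 and from 0.00271 to 0.303 for Slc6a18.

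**Figure D4:**
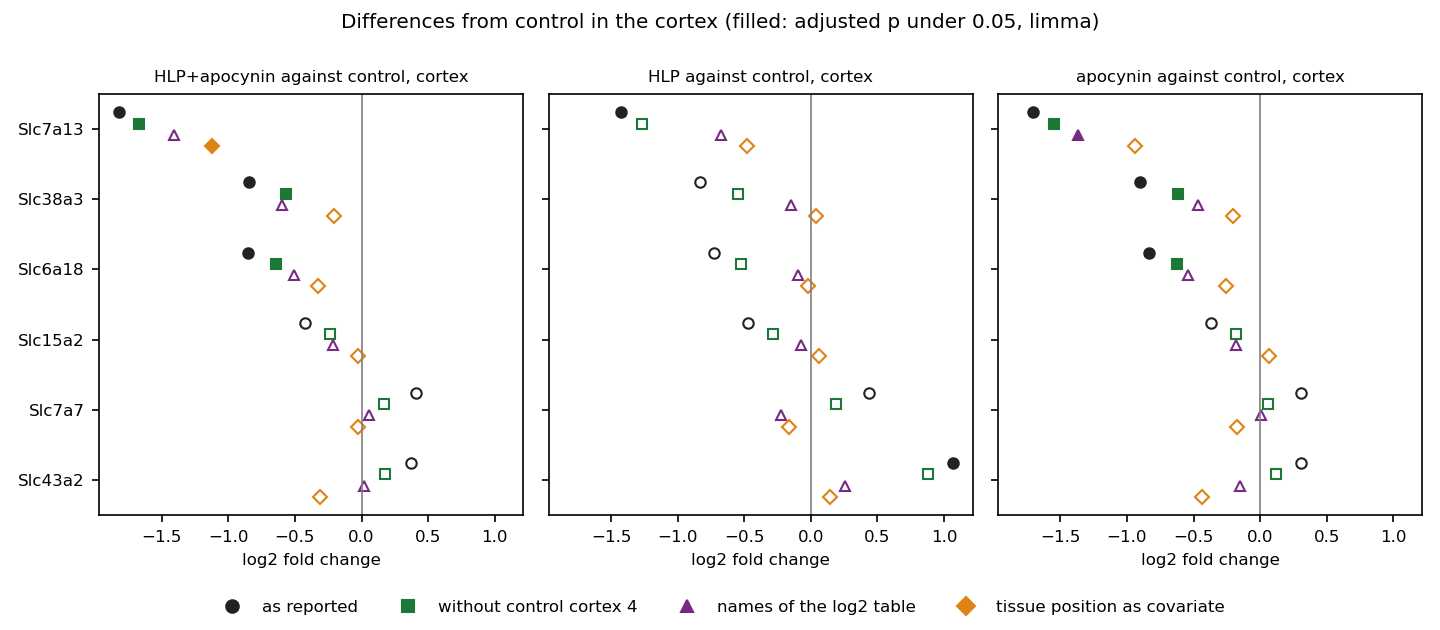
Log2 fold changes of 6 members against control in the cortex for the 3 diets, as reported, without control cortex 4, with the naming of the log2 table and with the tissue position as a covariate, filled where the adjusted p was under 0.05. Slc7a13 lay below 0 under all 4, between -1.82 and -1.12 for HLP+apocynin, while Slc43a2 and Slc7a7 lay on both sides of 0.

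HLP+apocynin against HLP asks whether apocynin changed the carriers of HLP-fed rats. Its fold changes do not use the control arrays, which enter only the estimate of the spread. Of 41 members, 5 passed (12.2%, against 18.4% of all probes), 2 up and 3 down, and 9 had an unadjusted p under 0.05. The median was -0.01 over the members and -0.00 over all probes. Slc6a13 measured 7.36, 7.93 and 8.30 in HLP+apocynin-fed rats against 7.96, 8.37 and 8.59 in HLP-fed rats, with overlapping ranges, a log2 fold change of -0.42 (its SE 0.14, adjusted p 0.0351). Over the alternatives its adjusted p ran from 0.00968 to 0.137, and it passed in 9 of 16. Without the arrays named HLP+apocynin 3, whose cortex array had the lowest Slc6a13 level, its value was -0.31 (adjusted p 0.102). Slc1a2, with 6.55, 6.60 and 6.62 in HLP+apocynin-fed rats against 6.50, 6.52 and 6.53 in HLP-fed rats, was higher (log2 fold change 0.07, adjusted p 0.00157). The glutamine carrier Slc38a1, with 6.56, 6.60 and 6.66 in HLP+apocynin-fed rats against 6.51, 6.53 and 6.56 in HLP-fed rats, was also higher (0.08, adjusted p 0.00972). Both lay near the floor. Slc38a9 (-0.04, adjusted p 0.00395) and Slc7a14 (-0.04, adjusted p 0.0222) were lower. Slc38a9 again entered the test only through the arrays of HLP-fed rats, where it was high. The ranges of Slc1a2, Slc38a1 and Slc38a9 did not overlap between the 2 groups, nor did those of 6.92% of all probes. Slc7a13, which was low in both, measured 10.20, 10.78 and 11.64 in HLP+apocynin-fed rats against 10.71, 11.19 and 12.14 in HLP-fed rats and did not pass.

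HLP+apocynin against apocynin gave no called member (0% of all probes), with 3 members at an unadjusted p under 0.05 and 4 at that limit, 0 after adjustment, by the t-test of the methods. The lowest p belonged to Slc36a4, a carrier of proline and tryptophan, at -0.04 (adjusted p 0.613). Nor was any member called for the apocynin effect in HLP-fed rats minus that in rats on plain chow (0% of all probes), and 9 had an unadjusted p under 0.05. For Slc38a3 this difference was 0.89 (SE 0.34, adjusted p 0.219) and for Slc43a2 it was -1.01 (SE 0.40, adjusted p 0.229).

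In the medulla few carriers passed the test between the diets. This does not show that the differences were small, as some members were widely spread between arrays. HLP against control gave no called member of 40 (0% of all 11972 tested probes), with 0 members at an unadjusted p under 0.05 and 1 by the t-test of the methods before adjustment. HLP+apocynin gave none against control (7.35% of all probes), none against HLP (8.25%) and none against apocynin (0%), with 2, 3 and 3 members at an unadjusted p under 0.05, and 2, 4 and 2 by the t-test of the methods, 0 after adjustment. Slc6a13 had the lowest p of the members against control and against HLP. It measured 6.68, 7.72 and 8.29 in HLP+apocynin-fed rats against 7.70, 8.25 and 8.56 in control rats, a log2 fold change of -0.56 (its SE 0.19, adjusted p 0.0799). Against HLP-fed rats, at 8.13, 8.25 and 8.49, it was -0.59 (SE 0.19, adjusted p 0.0602). The lowest value, 6.68, was that of HLP+apocynin array 3, and without it the values were -0.36 (adjusted p 0.155) against control and -0.39 (adjusted p 0.125) against HLP. Over the 16 alternatives the adjusted p ran from 0.0129 to 0.422 against control and from 0.0297 to 0.333 against HLP, and each passed in 2. The lysosomal peptide carrier Slc15a3 lay wholly above HLP-fed rats, with 6.81, 6.90 and 7.63 against 6.66, 6.74 and 6.79, and did not pass (0.27, adjusted p 0.124), where 4.26% of all probes lay apart. The highest value, 7.63, was again that of HLP+apocynin array 3, and without it the value was 0.14 (adjusted p 0.268, of a range of 0.0819 to 0.663 over the alternatives).

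Apocynin against control in the medulla called 1 member, Slc1a6 (2.5% of 40, against 7.13% of all probes), a glutamate carrier known from the cerebellum. It measured 6.50, 6.52 and 6.55 in apocynin-fed rats, with 4 of 6 arrays detected, against 6.48, 6.48 and 6.50 in control rats, with 1 of 6 detected, a log2 fold change of 0.03. The call was lost under the naming of the log2 table. Slc7a7 was widely spread in the medulla, with 9.86, 10.54 and 12.49 in apocynin-fed rats against 7.23, 9.27 and 12.23 in control rats (log2 fold change 1.09, adjusted p 0.317), and the highest values are the arrays nearer the cortex. In HLP+apocynin-fed rats, at 9.86, 10.57 and 11.85, its log2 fold change was 0.98 (adjusted p 0.323), and 1.49 (adjusted p 0.0489, of a range of 0.0489 to 0.526 over the alternatives) without those arrays. In the medulla the apocynin effect in HLP-fed rats minus that on plain chow was called for no member (0% of all probes), and 0 had an unadjusted p under 0.05.

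The HLP effect was set directly between the tissues. The difference of HLP against control in the cortex minus that in the medulla was called for no member (0% of all probes), and 8 had an unadjusted p under 0.05. Slc7a13 had the lowest p, with a difference of -1.64 (SE 0.41, adjusted p 0.251). An effect in the cortex alone was thus not shown for any carrier.

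Related genes were counted in lists that hold no carrier of the set. Of 15 brush border partners and peptidases, 10 were tested. Between the tissues 4 were higher in the cortex (34.2% of all probes were), among them the dipeptidase Dpep1 at 0.89 and the basolateral aromatic amino acid carrier Slc16a10 at 0.57, and 4 were lower (31.1% of all probes), among them the neutral endopeptidase Mme at -2.35, Anpep at -0.81 and Mep1a at -0.69. In the cortex Mme was called down by HLP at -1.47 (0 up, 1 down, median of the list -0.04, against 2.46% of all probes called). No probe was called in this comparison with the 36 arrays of the paper or with only the 12 arrays compared. Nor was any without the arrays nearer the other tissue or with the tissue position as a covariate. The Mme call is thus lost under these alternatives. HLP+apocynin against control called Cltrn, a partner of luminal Slc6 carriers, up at 0.13, with Mme at -1.12 and Mep1a at -0.44 down (median -0.14, against 16.1% of all probes). Apocynin against control called Anpep and Mep1a down at -0.54 and -0.40 (16.8% of all probes), HLP+apocynin against HLP called Enpep and Pepd down at -0.90 and -0.26 (18.4%), and no member of the list was called in the medulla. Mme, like Slc7a13 and Slc6a18, is a gene whose level was far lower in the cortex than in the medulla.

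The amino acid response, the genes that Atf4 raises when amino acids run short, had 10 of 18 listed genes tested in the cortex and 9 in the medulla. HLP against control called none (median of the list 0.01, against 2.46% of all probes called), and HLP+apocynin against control called Eif4ebp1, a brake on translation, up at 0.39 (median 0.09, against 16.1%). HLP+apocynin against HLP called Eif4ebp1 up at 0.50 and Sesn2 down at -0.07 (18.4% of all probes), and apocynin against control called Ddit3 down at -0.42 (16.8%). No gene of the list was called in the medulla. Between the tissues 4 were higher in the cortex (34.2% of all probes), led by the serine synthesis enzymes Phgdh at 2.00 and Psph at 1.16, and 3 were lower (31.1% of all probes), led by Ddit4 at -0.52.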

How the data were processed

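RNA of renal cortex and medulla was hybridised to Illumina RatRef-12 BeadChips, read with a bead array reader and summarised in Genome Studio. The authors deposited a signal table of linear probe intensities, which are not normalized, with a detection p-value from Genome Studio beside each, and a table of log2 values that were normalized between samples by a method not given in the sources used here. Symbols came from the probe annotation of the platform, which gives 1 symbol to 13650 probes, several to 0 and none to 8576. No comparison columns of the authors were used.

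The background was corrected by the nec function of limma, which fits normexp through the detection p-values and here added an offset of 16. Quantile normalization over the 48 arrays and a log2 scale followed. Background correction set the 10th percentile at 6.41, against 4.95 without it. A probe entered the tests of a tissue if 6 or more of its arrays had a detection p-value below 0.05. The 4 groups of a tissue shared 1 linear model in limma 3.58.1 (R 4.3.3; lmFit, then eBayes with its trend option), and Benjamini-Hochberg adjustment ran over all tested probes, with 0.05 as the threshold. For cortex against medulla, over probes detected in either tissue, arrays of the same group and number in the titles were taken as 1 rat, an assumption, and were joined by duplicateCorrelation (statmod 1.5.0, correlation 0.17). Over the 24 such pairs the deviations from the group means correlated at a median r of 0.37, from -0.79 to 0.80, and without the replicate block the count of members called was 32 as with it. The fit was tested on simulated data.

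Depth is not defined for arrays, and the number of 6 arrays a group limits the precision. Members and lists were chosen with earlier results of these data known. Members could be named where 12 or fewer were called, otherwise the 8 of largest rise and the 8 of largest fall, together with carriers of textbook roles in renal uptake and the few that an alternative or a range singled out, and other members named here were chosen after their values were seen. The alternatives tried were median scaling, quantile normalization within a tissue, no background correction, the 36 arrays of the paper, no filter, detection in at least 18 arrays, the log2 values of the authors, the names of the log2 table, the t-test of the methods, a block for the replicate number, and only the 12 arrays compared. Chosen after seeing the data were a robust background, leaving out the arrays nearer the other tissue, only the 24 arrays of the same group in both tables, the tissue position as a covariate, and leaving out the arrays named HLP+apocynin 3.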

Additional observations from a re-analysis of the deposited data

Results flagged for a closer look

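In 264 groups of 6 arrays of the named members, 45 held an array far from the 5 others by Dixon's criterion, which chance gives in about 1 of 20 groups. Of these, 21 belong to the 3 arrays nearer the other tissue, which are named first. In each case the log2 signal of the array is given. Control cortex 4 had a high Slc38a1 (6.67) and Slc1a5 (7.80) and a low Slc7a7 (10.83) and Slc7a9 (10.78). Control medulla 4 had a low Slc6a18 (9.89), Slc38a3 (6.80), Slc7a13 (12.01) and Slc15a2 (6.80) and a high Slc43a2 (8.67), Slc15a1 (7.02) and Slc15a3 (7.19). Apocynin medulla 4 had a low Slc6a18 (9.94), Slc7a13 (12.07) and Slc15a4 (8.50) and a high Slc7a7 (12.49), Slc7a9 (11.82), Slc43a2 (8.47), Slc7a8 (7.01), Slc15a1 (7.29), Slc38a7 (6.72) and Slc6a8 (11.45).

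The pair of arrays named HLP+apocynin 3 held 8. In the medulla Slc6a18 (10.13), Slc7a13 (12.79) and Slc1a1 (11.85) were low there and Slc1a5 (8.26), Slc7a6 (8.42) and Slc15a3 (7.63) high, and in the cortex Slc7a6 (7.66) and Slc7a5 (6.59) were high. HLP+apocynin medulla 5 was high in Slc3a2 (12.18), Slc7a8 (6.92), Slc15a1 (6.91), Slc38a7 (6.63) and Slc6a8 (11.12), all of them members with a higher level in the cortex. Singly, apocynin cortex 3 was high in Slc6a18 (10.18), control medulla 3 in Slc7a5 (6.71) and HLP medulla 3 in Slc7a14 (6.64). Slc15a4 was low in HLP cortex 4 (8.41), apocynin cortex 4 (8.13), control cortex 6 (8.33) and control medulla 6 (8.19). Slc38a4 was high in HLP cortex 3 (8.52), HLP medulla 3 (8.09) and apocynin medulla 1 (7.92), and Slc6a7 in HLP+apocynin cortex 2 (6.54).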

How the results depend on the processing

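Over the 106 pairs of a named member and a comparison, 1550 values were recomputed: 1396 kept their direction and their side of the threshold, 91 lost the call, 27 gained it and 36 changed sign. The causes were not tested. The count of members that differed between cortex and medulla, 32 as reported, was 29 to 41 over the 12 alternatives run for it. Single values moved more, Slc15a1 from 0.36 to 1.72 and Slc7a8 from 0.49 to 1.98, and Slc7a5, Slc7a6os, Slc15a4, Slc38a4 and Slc38a6 each lost the call in 1 of 12, and Slc15a3 in 2. The covariate, the t-test, the 36 arrays and the 12 arrays were not run for this comparison. The number of members called for HLP against control in the cortex, 3 as reported, was 1 with median scaling and 1 with the log2 values of the authors. It was 0 with the 36 arrays of the paper, no filter, the names of the log2 table, only the 12 arrays compared, the t-test of the methods, without the arrays nearer the other tissue and with the tissue position as a covariate, and 6 with the arrays of the same group in both tables. For HLP+apocynin against control in the cortex, 5 as reported, it was 3 with the 36 arrays, 8 with no filter, and 2 with the names of the log2 table, with only the 12 arrays and with the t-test. For HLP+apocynin against HLP in the cortex, also 5, it was 3 with the 36 arrays, with the t-test and without HLP+apocynin replicate 3, 8 with no filter, and 1 with the names of the log2 table and with the arrays of the same group. For apocynin against control in the cortex, 7 as reported, it was 4 with median scaling, detection in at least 18 arrays, the t-test, the arrays of the same group and the covariate.

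In the medulla, HLP+apocynin against control, 0 as reported, called 1 member with median scaling, 1 without the arrays nearer the other tissue, 1 without HLP+apocynin replicate 3 and 3 with the covariate. HLP+apocynin against HLP, 0 as reported, called 2 with the covariate, and apocynin against control, 1 as reported, called 2 with no filter, 3 with the covariate, and 0 with detection in at least 18 arrays, the names of the log2 table, only the 12 arrays, the t-test and the arrays of the same group. The HLP effect in the cortex minus that in the medulla, 0 as reported, called 2 with the arrays of the same group.

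Equally numbered arrays of different groups share only that number, with deviations correlated at a median r of 0.02 in the cortex (-0.19 to 0.56) and 0.10 in the medulla (-0.62 to 0.85). With the replicate number as a block, HLP+apocynin against HLP in the medulla called 1 member in place of 0, and HLP against control in the cortex 4 in place of 3. Other counts stayed within 1.5 times under the block.

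The log2 differences that changed sign did so mainly under the covariate, the other naming and other scalings. With the tissue position as a covariate, HLP against control in the cortex came to 0.23 for Slc38a2, 0.063 for Slc15a2, 0.036 for Slc38a3, -0.16 for Slc7a7, -0.15 for Slc7a9 and -0.16 for Slc3a2. HLP+apocynin against control came to -0.32 for Slc43a2 and -0.029 for Slc7a7, and apocynin against control to 0.063 for Slc15a2, -0.44 for Slc43a2, -0.18 for Slc7a7 and -0.019 for Slc15a1. HLP+apocynin against HLP in the medulla came to -0.0033 for Slc7a7, and to -0.015 with the arrays of the same group. With the names of the log2 table, HLP against control in the cortex came to -0.22 for Slc7a7, -0.057 for Slc15a1 and -0.088 for Slc7a9, and apocynin against control to -0.15 for Slc43a2 and -0.11 for Slc15a1. In the medulla HLP against control came to -0.0018 for Slc15a2, -0.15 for Slc6a18, -0.19 for Slc7a13 and -0.30 for Slc38a3, and HLP+apocynin against apocynin to -0.027 for Slc38a3, and to -0.076 without the arrays nearer the other tissue. Under the same names Slc15a4 came to -0.20 for HLP+apocynin against apocynin in the cortex and Slc38a4 to -0.15 for HLP against control. For cortex against medulla, quantile normalization within each tissue gave -0.10 for Slc38a9, -0.10 for Slc15a3, -0.18 for Slc38a4 and -0.084 for Slc38a6. The log2 values of the authors gave -0.38, -0.11, -0.23 and -0.11 for these, and median scaling -0.039 for Slc38a4. Signals near the background limit what can be said of dim members, whose differences shrink with the offset.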
